A study of Mus musculus with 8 samples.

Results

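The genes examined here were 10 genes of the cellular response to low oxygen, taken by their symbols from an RNA sequencing table of 22520 genes. They were the oxygen-sensitive transcription factors Hif1a and Epas1, the prolyl hydroxylases Egln1 and Egln3 that mark these factors for breakdown, and 6 genes known as targets of the factors (Bnip3, Ankrd37, Ndrg1, Pdk1, Adm and Car9). Each symbol matched 1 row of the table, and all 10 genes passed the filter on low values described with the tests. Microvascular endothelial cells (MVECs) from C57BL/6 mice at postnatal day 14 were compared between LRP1 knockout (LRP1 KO) animals and their wild-type (WT) littermates, with 4 libraries in each group. By their labels, all 8 libraries mix cells of heart, liver and lung. The study asked which genes change in endothelium that lacks LRP1, a receptor that takes up many extracellular ligands. The published study describes separate libraries of liver and of heart and lung cells, not these mixtures, so what it says of mice and isolation may not hold in full here. In it, endothelial knockout mice were homozygous for a floxed Lrp1 allele and carried an inducible Cre recombinase (CreER) driven by the Cdh5 promoter, which is active in endothelium. Its WT littermates also carried the floxed alleles but no Cre, and endothelial cells were pulled out with PECAM-1 beads. The methods of the study also list a CAG-CreER line, without saying for which experiments. Neither the labels nor the methods say whether the 4 libraries of a group came from separate animals, so p-values measure only the spread between these libraries.

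Oxygen sensing works mainly through protein stability. When oxygen is plentiful, prolyl hydroxylases modify the alpha subunits HIF1α (encoded by Hif1a) and HIF2α (encoded by Epas1), which are then bound by the VHL ubiquitin ligase and degraded. When oxygen falls, the alpha subunits persist, pair with the beta subunit ARNT and bind hypoxia response elements with the core ACGTG or GCGTG. Their targets shift metabolism from respiration to glycolysis, remove mitochondria, control pH and send signals to blood vessels. HIF2α was first described in endothelium, whereas HIF1α is made by most cells. The levels of mRNA reported here do not show the amount of either protein.

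Promoter sequences from RefSeq (GRCm38.p6) show where the response element cores lie in these genes. Of the 10 genes, 8 matched the promoter table, with 9 promoters in all because Pdk1 had 2. Epas1 and Ndrg1 had none there. The cores ACGTG and GCGTG were searched on both strands in the 250 bases before each start site, where a CACGTG counts as ACGTG on each strand. At least 1 core was found in 8 of the 9 promoters, and ACGTG in 6. Over all 32851 promoters of the table, 38.6% held at least 1 of the cores and 16.6% held ACGTG. The stretches of 30 bases shown here were chosen because Car9 was the target that changed most, Bnip3 held the densest group of cores, and Egln1 and Adm represent a hydroxylase and a secreted target. They are written 5′ to 3′ on the strand of the gene, with the cores (or their reverse complements CACGT and CACGC) in capitals.
Car9, chr4:43506995-43507024, plus strand, 31 to 2 bases before the start: cctatttccgatgCACGTacagcccgtcca
Bnip3, chr7:138909597-138909626, minus strand, 120 to 91 bases before the start: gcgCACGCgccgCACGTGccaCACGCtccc
Egln1, chr8:124949306-124949335, minus strand, 81 to 52 bases before the start: ggggccgtggtgtACGTGcagcgcgcgcgg
Adm, chr7:110627554-110627583, plus strand, 103 to 74 bases before the start: ttttagaagcaagCACGCtggagagggagg
Bnip3 carried 4 cores within these 30 bases, of which a pair shared the letters CACGTG, and the other stretches carried 1 each. The Car9 stretch lay before the RefSeq start site but inside an exon of Car9 in the GENCODE M21 annotation, and so did 19 bases of the Egln1 stretch in Egln1. A core is a match of letters and does not show that a factor was bound.

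All values are taken as FPKM, a measure of fragments scaled to transcript length and to the size of the library, so that levels can be compared between genes. Quantile normalization by the authors is inferred, because sorted values were nearly equal between libraries. The libraries summed to between 503571 and 504112, and their sequencing depth cannot be read from these values. Lrp1, the targeted gene, had WT values of 103 to 140 FPKM, against 2.79 to 7.72 FPKM for LRP1 KO, and its mean in LRP1 KO was 3.99% of that in WT. LRP1 KO library 4 stood apart from the others of its group, at 0.102 on the first principal component (60.8% of the variance) against 17.2 to 27.3 for the other 3 and -24.1 to -12.9 for WT. Of the 20 endothelial genes fixed as markers, 18 had a WT mean of at least 1 FPKM, but their levels were modest, with Cdh5 at 8.87 to 11.2 FPKM in WT beside 726 to 973 FPKM for the fibroblast gene Col1a2. Marker levels also moved with the groups, and calls are by the limma test described with the results. The summed level of the 20 endothelial genes was 189 to 208 FPKM in WT and 706, 431, 513 and 195 FPKM in libraries 1 to 4 of LRP1 KO, and 1 of 18 tested genes passed as higher (Eng) and 0 as lower, with 13 at an unadjusted p under 0.05. The sum of 18 macrophage genes was 104 to 127 FPKM in WT and 244 to 578 FPKM in LRP1 KO, with 8 of its 11 tested genes called higher and 0 called lower, although Cd14 had an estimate of -0.47 (limma adjusted p 0.136). Of these, Emr1 and Mrc1 passed the filter on low values through LRP1 KO alone, with WT values up to 0.475 and 0.657 FPKM. They could therefore only come out higher. Of 10 further leukocyte genes, 7 were tested and 6 called higher, with sums of 7.98 to 14.0 FPKM against 49.1 to 98.3 FPKM. Cd52 likewise passed the filter through LRP1 KO alone, with WT values up to 0.174 FPKM. The 10 mural genes summed to 667 to 833 FPKM against 1033 to 1617 FPKM, and 3 of 7 tested were called higher (Acta2, Tagln and Des). Of the 7 estimates 6 were above 0, and that of Pdgfrb was -0.31 (limma adjusted p 0.221). Acta2 and Tagln made up most of the sum, with WT means of 360 and 298 FPKM. No endothelial or macrophage gene was at 0 in every library, although Clec4f and Timd4 of Kupffer cells were at 0.0152 FPKM or less in all libraries. The 12 fibroblast genes summed to 2608 to 3752 FPKM in WT and to 2190 to 3407 FPKM in LRP1 KO, with 3 of 11 tested called lower (Dpt, Pdgfra and Thy1, at 29.2%, 53.0% and 69.0% of the WT mean) and 1 called higher (Postn). The part of these shifts in the results was not tested, and fits with a marker level as covariate are given for many of the genes. The macrophage sums did not overlap between groups, so the macrophage covariate nearly follows group. A call lost in that fit can reflect a wider SE rather than a smaller change. In such bulk samples, fewer cells of a type and less RNA per cell cannot be told apart.

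Of the 10 hypoxia genes, Epas1 rose and Car9 fell in LRP1 KO, and the other 8 did not pass the test. Groups were compared with limma on log2(FPKM + 1), fitted to the 11389 genes with at least 1 FPKM in at least 4 libraries, and a gene passed at a Benjamini-Hochberg adjusted p under 0.05 over all of them. In this fit 13.6% of all tested genes passed (6.27% higher and 7.31% lower), against 2 of the 10. Values of the 2 groups did not overlap in 3 of the 10 (Egln1, Ndrg1 and Car9), and in 19.6% of all tested genes (8.84% higher and 10.7% lower). At an unadjusted p under 0.05 there were 5 of the 10, beside 33.7% of all tested genes. The median log2 fold change of the 10 was 0.03, beside -0.01 over all tested genes. With 10 genes these shares are too coarse to set the list apart from the other genes, and the results are those of single genes. Without LRP1 KO library 4, 5 of the 10 passed (Epas1 and Ankrd37 higher, Car9, Egln3 and Ndrg1 lower), when 26.5% of all tested genes did.

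**Figure D1:**
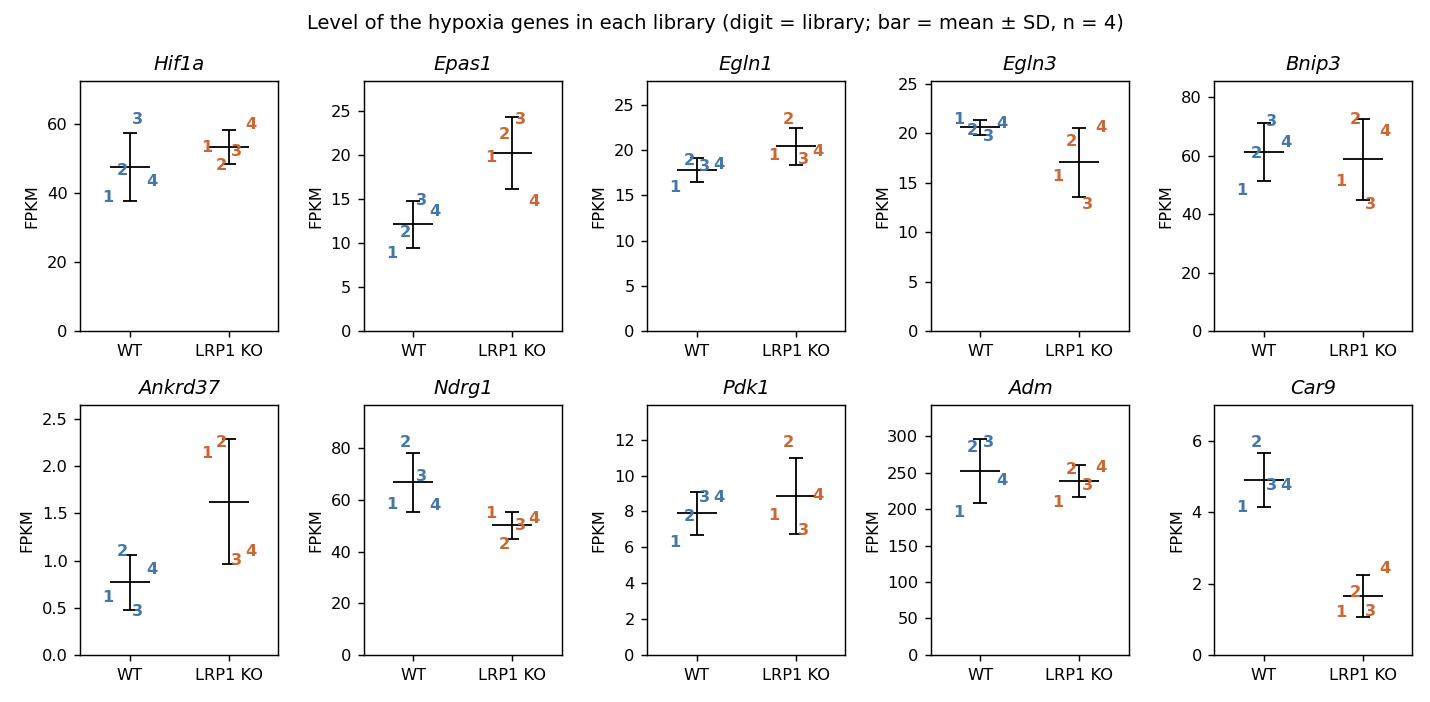
Level of each of the 10 hypoxia genes in FPKM on a linear axis from 0, with each digit marking 1 library of WT (blue) or LRP1 KO (orange) and black bars the mean ± SD of 4 libraries. Car9 in LRP1 KO lay below every WT value, Epas1 in LRP1 KO libraries 1 to 3 lay above every WT value, and most other genes overlapped.

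Of the transcription factor genes, Epas1 passed and Hif1a did not, and the difference between their changes was not tested. Epas1 (ENSMUSG00000024140, GRCm38 chromosome 17, 86753700 to 86833410, plus strand) read 8.85, 11.2, 14.8 and 13.6 FPKM in libraries 1 to 4 of WT, and 19.7, 22.3, 24.1 and 14.7 FPKM in those of LRP1 KO. The first 3 LRP1 KO libraries were above every WT library, while library 4 lay just under the highest WT value, so the groups overlapped. The mean went from 12.1 ± 2.64 to 20.2 ± 4.09 FPKM (SD, n = 4 each), a ratio of 1.67, and the change on the log2(FPKM + 1) scale was 0.69 (SE 0.18, limma adjusted p 0.0338). The exact two-sided permutation test over the 70 ways to choose 4 of 8 libraries gave p = 0.0571, where the smallest value it allows is 0.0286. This call was not secure. With 1 library omitted at a time, Epas1 passed in 2 of 8 fits (those lacking WT library 3 or LRP1 KO library 4). It also passed under 4 of 7 other settings, with estimates from 0.45 to 0.86 that were positive in all 15. The lowest was with the mean log2 level of the endothelial genes as a covariate (limma adjusted p 0.533, lowest 0.00616 and highest 0.533 of the alternatives).

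Epas1 and the summed endothelial level were highest in the same 3 libraries. These were LRP1 KO libraries 1 to 3, and library 4 was at the WT level in both, although the order among the first 3 differed, with library 1 highest in endothelial genes and library 3 highest in Epas1. Cdh5, which encodes VE-cadherin, was at 47.3, 21.5, 33.9 and 8.56 FPKM, in order, for the LRP1 KO libraries, and its change did not pass (limma adjusted p 0.0766).

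**Figure D2:**
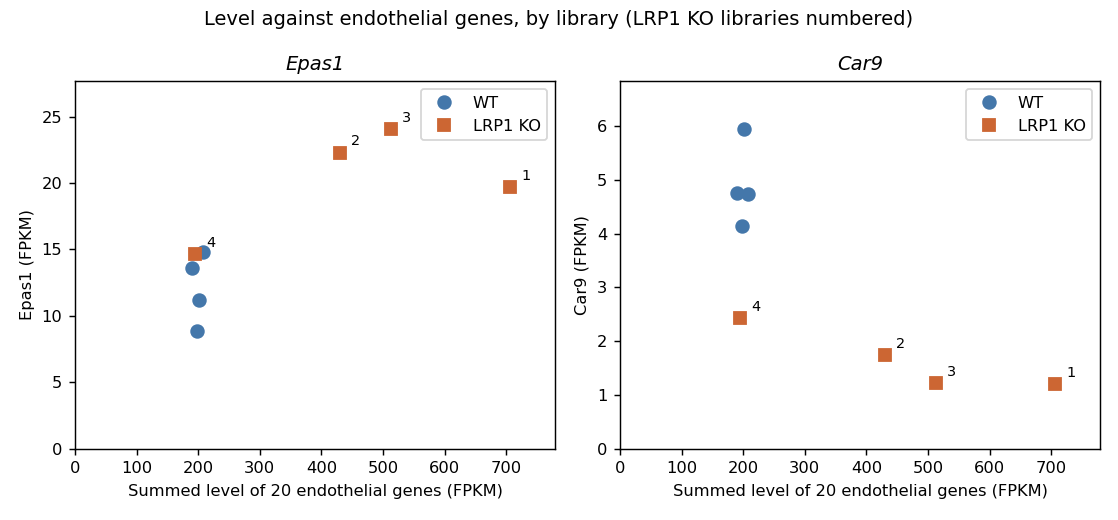
Epas1 (left) and Car9 (right) in FPKM against the summed FPKM of 20 endothelial marker genes, with 1 point a library, circles for WT and numbered squares for LRP1 KO. LRP1 KO library 4 lay within the WT cluster for Epas1, at 14.7 FPKM, but below all WT libraries for Car9, at 2.43 FPKM.

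Hif1a (ENSMUSG00000021109, chromosome 12, 73901375 to 73947530, plus strand) was the more abundant factor. Libraries 1 to 4 of WT read 38.6, 46.5, 61.3 and 43.1 FPKM, and those of LRP1 KO read 53.2, 47.9, 52.0 and 59.8 FPKM. All 4 LRP1 KO values lay inside the WT range. The change was 0.18 (SE 0.13, 95% interval -0.11 to 0.47, limma adjusted p 0.352), and the estimate was negative, at -0.09, with the macrophage covariate. Of the exonic bases of Hif1a, 8.11% are shared with the antisense gene Gm15283 and with Gm49321, and whether the counting used strand is not given in the sources used here. The ratio of Hif1a to Epas1 in FPKM was 4.37, 4.14, 4.14 and 3.17 in WT libraries 1 to 4 and 2.70, 2.15, 2.16 and 4.07 in LRP1 KO libraries 1 to 4. Hif1a mRNA thus exceeded Epas1 mRNA in every library, by less in LRP1 KO libraries 1 to 3 than in any WT library.

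The hydroxylase genes moved in opposite directions without passing the test. Egln1 (ENSMUSG00000031987, chromosome 8, 124908587 to 124949324, minus strand) encodes PHD2, the main oxygen sensor for HIF1α. The WT libraries read 15.8, 18.9, 18.2 and 18.4 FPKM, and the LRP1 KO libraries 19.4, 23.4, 19.0 and 19.9 FPKM. All LRP1 KO values exceeded all WT values, but by little, with 19.0 against 18.9 FPKM at the border. The change was 0.19 (SE 0.08, 95% interval 0.00183 to 0.37, limma adjusted p 0.145), and it was -0.14 with the macrophage covariate. Egln3 (ENSMUSG00000035105, chromosome 12, 54178981 to 54203860, minus strand) encodes PHD3, a hydroxylase that is itself induced by HIF. The WT libraries read 21.4, 20.3, 19.7 and 21.1 FPKM, and the LRP1 KO libraries 15.7, 19.2, 12.8 and 20.6 FPKM. LRP1 KO libraries 1 to 3 were below all of WT and library 4 was within its range. The change was -0.28 (SE 0.13, 95% interval -0.56 to 0.00646, limma adjusted p 0.156). It passed without LRP1 KO library 4, at -0.37 (limma adjusted p 0.0439, lowest 0.0439 and highest 0.969 of the alternatives). Over the 15 alternatives the estimate ran from -0.95 to -0.0257, and from -0.37 to -0.16 with 1 library left out.

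Other parts of the sensing machinery showed no call. A list of 16 genes held the beta subunits, the further alpha subunit gene Hif3a, other hydroxylases, the VHL ligase complex and coactivators. In limma 0 of the 16 passed in either direction, and 4 had an unadjusted p under 0.05, with log2 fold changes from -0.43 to 0.22 and a median of -0.06. Arnt, which encodes the beta subunit that both alpha subunits need, had WT values of 20.4 to 25.8 FPKM, against 20.7 to 22.4 FPKM for LRP1 KO (change -0.11, 95% interval -0.27 to 0.05, limma adjusted p 0.313). Vhl, which encodes the subunit that recognises hydroxylated HIF, had WT values of 12.9 to 16.4 FPKM, against 11.7 to 13.8 FPKM for LRP1 KO (change -0.18, 95% interval -0.36 to 0.00321, limma adjusted p 0.154). The groups overlapped in both genes.

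**Figure D3:**
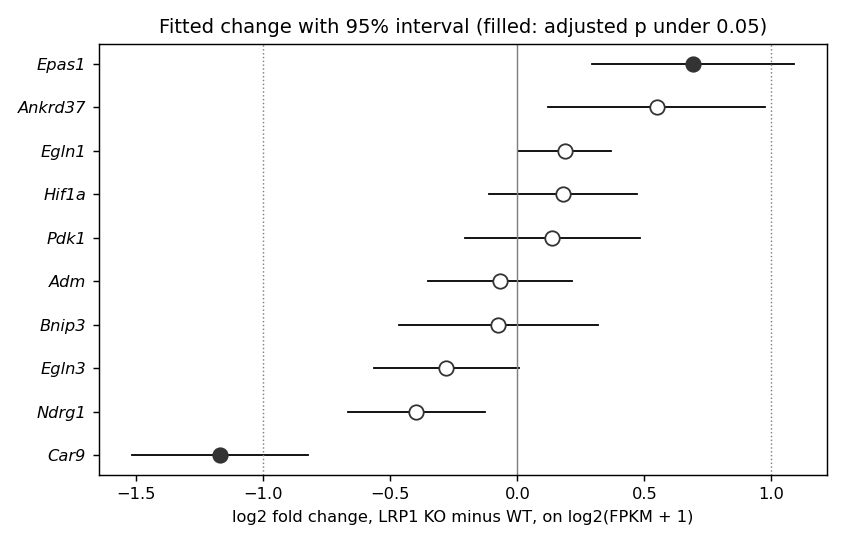
Fitted log2 fold change (LRP1 KO minus WT, on log2(FPKM + 1)) of the 10 hypoxia genes with its 95% interval, filled where the adjusted p was under 0.05 and with dotted lines at a change of 1 in either direction. Car9 at -1.17 was the 1 gene past the dotted lines, and the intervals of Hif1a, Bnip3, Pdk1 and Adm ran well to both sides of 0.

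Among the targets, Car9 changed most. Car9 (ENSMUSG00000028463, chromosome 4, 43506966 to 43513729, plus strand) encodes carbonic anhydrase IX, an enzyme of the cell surface that controls pH and is a widely used marker of hypoxia. Libraries 1 to 4 of WT read 4.14, 5.95, 4.74 and 4.76 FPKM, and those of LRP1 KO read 1.20, 1.75, 1.22 and 2.43 FPKM. Every LRP1 KO library lay below every WT library, with library 4 the highest of its group. The mean went from 4.90 ± 0.757 to 1.65 ± 0.579 FPKM (SD, n = 4 each), which is 33.7% of WT. Car9 fell by 1.17 in log2(FPKM + 1) (SE 0.15, limma adjusted p 0.00302), and an exact permutation test (two-sided) gave p = 0.0286, the smallest it allows. It was the 1 of the 10 past both the adjusted p and a 2-fold change, a pair of limits met by 1.62% of tested genes and, for lower genes, by 0.5%. The fall was past the threshold in all 15 alternative settings, from -1.91 with the macrophage covariate to -0.82 with the endothelial covariate (limma adjusted p 0.0426 and 0.0346, lowest 0.000461 and highest 0.0426 of the 15). Adding 1 FPKM understates changes at low levels, and adding 0.1 FPKM in its place gave an estimate of -1.56. An antisense gene, Gm12454, overlaps 9.29% of the exonic bases of Car9, and the table does not separate the strands.

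Ndrg1 and Ankrd37 were near the threshold, in opposite directions. Ndrg1 (ENSMUSG00000005125, chromosome 15, 66929318 to 66969640, minus strand) encodes a stress-induced cytoplasmic protein that rises in most cells under hypoxia. The WT libraries read 58.1, 82.0, 69.0 and 57.7 FPKM, and the LRP1 KO libraries 54.7, 42.8, 50.1 and 52.8 FPKM. All LRP1 KO values were below all WT values, with 54.7 against 57.7 FPKM at the border. The change was -0.40 (SE 0.12, 95% interval -0.67 to -0.13, limma adjusted p 0.0562), and it passed in 1 of 15 alternatives, without LRP1 KO library 4 (-0.42, limma adjusted p 0.0454, lowest 0.0454 and highest 0.444 of the alternatives).
Ankrd37 (ENSMUSG00000050914, chromosome 8, 45996902 to 46005707, minus strand) encodes an ankyrin repeat protein and is a direct HIF1 target in several cell types. It was near the filter, read at 0.607, 1.10, 0.459 and 0.910 FPKM among WT libraries, against 2.14, 2.25, 1.01 and 1.10 FPKM for LRP1 KO. Every LRP1 KO library reached 1 FPKM, but only library 2 of WT did. The gene was thus tested because of its LRP1 KO values, which favours a rise. LRP1 KO libraries 1 and 2 stood clear of WT, while libraries 3 and 4 were close to the highest WT value. The change was 0.55 (SE 0.19, 95% interval 0.12 to 0.97, limma adjusted p 0.0808). It passed without LRP1 KO library 4, at 0.64 (limma adjusted p 0.0400, lowest 0.0400 and highest 0.843 of the alternatives), and with a pseudocount of 0.1 the estimate was 0.97. With the endothelial and macrophage covariates Ankrd37 was at 0.35 and 0.18. Its exons overlap those of Lrp2bp and Ufsp2 on the opposite strand over 26.4% of their bases, so part of its reads could belong to these genes.

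Bnip3, Pdk1 and Adm stayed within the spread of the libraries. Bnip3 (ENSMUSG00000078566, chromosome 7, 138890836 to 138909519, minus strand) encodes a mitochondrial protein that triggers the removal of mitochondria, and its promoter held the densest group of cores. Its values were 48.0, 60.8, 71.7 and 64.5 FPKM in WT and 51.3, 72.4, 43.1 and 68.3 FPKM in LRP1 KO. The change was -0.07 (SE 0.17, 95% interval -0.47 to 0.32, limma adjusted p 0.792). It turned positive in 3 settings and passed in 1, with the macrophage covariate at -1.16 (limma adjusted p 0.0426, lowest 0.0426 and highest 0.989 of the alternatives). Of the 50-base stretches of its transcript, 21.9% also occur in other genes such as Gm16439, so reads could be shared.

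Pdk1 (ENSMUSG00000006494, chromosome 2, 71873224 to 71903858, plus strand) encodes a kinase that shuts pyruvate out of the mitochondria. The WT libraries read 6.27, 7.71, 8.78 and 8.79 FPKM, and the LRP1 KO libraries 7.80, 11.8, 6.94 and 8.91 FPKM. The LRP1 KO values lay on both sides of most of WT, with library 2 highest. The change was 0.14 (SE 0.15, 95% interval -0.21 to 0.48, limma adjusted p 0.561), and it was -0.68 with the macrophage covariate.

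Adm (ENSMUSG00000030790, chromosome 7, 110627661 to 110629820, plus strand) encodes adrenomedullin, a peptide that dilates vessels and tightens the endothelial barrier. It was by far the most abundant of the 10, above 97.4% of all tested genes in WT. Its values were 196, 284, 291 and 239 FPKM in WT and 210, 255, 232 and 258 FPKM in LRP1 KO. All LRP1 KO values were inside the WT range, and the change was -0.07 (SE 0.13, 95% interval -0.35 to 0.22, limma adjusted p 0.738). It was 0.00609 without WT library 3, and 0.07 and -0.56 with the endothelial and macrophage covariates.

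The receptor genes for adrenomedullin were far lower than the gene of the ligand. The receptor is formed by Calcrl with Ramp2 or Ramp3, whereas Calcrl with Ramp1 binds a related peptide, CGRP. Of 7 genes in this list, 5 were tested, 0 passed as higher and 1, Ramp1, passed as lower. Ramp1 was read at 2.76, 2.82, 2.74 and 2.81 FPKM among WT libraries, against 0.995, 1.67, 0.861 and 1.65 FPKM for LRP1 KO. Every LRP1 KO value was below the narrow WT range, and Ramp1 fell by 0.74 in log2(FPKM + 1) (SE 0.13, limma adjusted p 0.00961). The call was lost in 1 of 15 alternatives, with the endothelial covariate (-0.49, limma adjusted p 0.200, lowest 0.00277 and highest 0.200 of the alternatives). Using the macrophage covariate gave -1.40. Calcrl had WT values of 1.08 to 2.60 FPKM, against 4.67, 2.50, 4.39 and 1.70 FPKM for LRP1 KO (change 0.67, SE 0.25, limma adjusted p 0.102). As with Epas1, LRP1 KO library 4 was at the WT level. Calcrl passed without that library, at 0.87 (limma adjusted p 0.0204), and was at 0.0884 and 1.61 with the endothelial and macrophage covariates. Ramp2 had WT values of 4.16 to 6.87 FPKM, against 3.12 to 9.03 FPKM for LRP1 KO (limma adjusted p 0.578), and its change of 0.22 was -0.49 with the endothelial covariate. Ramp2 passed as higher in 1 of 8 fits with 1 library left out (limma adjusted p 0.0417). Ramp3 had WT values of 1.09 to 1.68 FPKM, against 0.885 to 1.16 FPKM for LRP1 KO (limma adjusted p 0.181). Ramp2 shares 33.4% of its exonic bases with Vps25, which leaves its level uncertain.

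The order of the 10 genes by mean level was similar in the 2 groups. In WT it ran from Adm at 252.6 FPKM through Ndrg1 (66.7), Bnip3 (61.3), Hif1a (47.4), Egln3 (20.6), Egln1 (17.8), Epas1 (12.1), Pdk1 (7.89) and Car9 (4.90) to Ankrd37 at 0.768 FPKM. Neighbours whose library values overlapped were Ndrg1 and Bnip3, and Bnip3 and Hif1a. In LRP1 KO, Epas1 at 20.2 FPKM passed Egln3 at 17.1 FPKM, although these values overlapped, as did those of Egln1 and Epas1, Bnip3 and Hif1a, and Hif1a and Ndrg1. Car9 came down to the level of Ankrd37, at 1.65 and 1.62 FPKM with overlapping values, whereas the 2 genes did not overlap in WT.

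Further HIF target genes were examined in 6 lists, with the 10 genes left out. Of 66 tested targets, 23 passed, 17 higher and 6 lower, or 34.8%, beside 13.6% of all tested genes. The median log2 fold change of these targets was 0.09. The lists were written from general knowledge with earlier results of these data known, so these counts describe them and are not a test. Other settings were counted over these targets and the 16 machinery genes together, 82 in all, where the same 23 calls stood at the start. Without LRP1 KO library 4 there were 37 calls among the 82, with any other library left out 8 to 14, and with the endothelial and macrophage covariates 2 and 0. Calls over all 11389 tested genes moved likewise, from 1547 to 3021 without LRP1 KO library 4, to between 512 and 1008 without any other library, and to 164 and 30 with the covariates. With the macrophage covariate, fewer calls do not by themselves show smaller changes, because that covariate nearly follows group.

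Glycolytic targets, the longest of the 6 lists, held the most called genes, though at 45% of those tested, below 57.1% in the matrix-modifying list. Of 20 tested, 7 passed as higher and 2 as lower, with a median of 0.16. Pfkfb3, which makes the main activator of phosphofructokinase and drives glycolysis in endothelium, had WT values of 7.53 to 9.48 FPKM, against 16.3, 14.7, 15.6 and 11.1 FPKM for LRP1 KO. It rose by 0.68 (SE 0.12, limma adjusted p 0.0110), with no overlap, and lost the call in 2 of 15 alternatives, with the endothelial (0.42) and macrophage (0.98) covariates. Pgk1 and Pgam1, enzymes of the lower part of the pathway, rose by 0.57 and 0.47 (limma adjusted p 0.0214 and 0.0199), calls lost in 7 and 6 of 15 alternatives. Pgk1 was at 0.39 and 0.36 with the endothelial and macrophage covariates, and Pgam1 at 0.25 and 0.66. The other 4 that rose, named after their values were seen, were Hk1, Pfkp, Eno1 and Ldha, at 0.28 to 0.38. Many stretches of Pgk1 (68.0%) and Pgam1 (41.5%) recur in other genes such as pseudogenes, so their levels may mix copies.
Aldoc, an aldolase best known from brain, had the largest fall in this list, in which 16 of 20 estimates were above 0. The WT libraries read 22.2, 28.2, 22.9 and 18.0 FPKM, and the LRP1 KO libraries 6.57, 5.83, 5.17 and 9.99 FPKM, a fall of 1.61 (SE 0.18, limma adjusted p 0.00154) to 30.2% of the WT mean, and the call was lost in 1 of 15 alternatives, with the macrophage covariate (-2.23). Gpi1, the isomerase of the second step, also fell, by 0.27 (limma adjusted p 0.0441), a call kept in only 2 of 15 alternatives. The main glucose carrier gene Slc2a1, named after its value was seen, did not pass (0.13, limma adjusted p 0.264).

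Of 7 genes that modify matrix, 4 rose and 0 fell, with a median of 0.33. These enzymes hydroxylate or cross-link collagen. P4ha1, a prolyl hydroxylase of collagen, went from a WT mean of 92.8 ± 8.91 FPKM to 130.5 ± 9.49 FPKM in the knockout (SD, n = 4 each) and rose by 0.49 (SE 0.08, limma adjusted p 0.00788), and no value overlapped. The call was lost with the endothelial and macrophage covariates, at 0.46 and 0.31. Plod2 rose by 0.44 (limma adjusted p 0.0474) and Loxl2 by 0.33 (limma adjusted p 0.0489), each with an overlap between groups, and 45.8% of the stretches of Loxl2 recur in other genes. The remaining gene that rose, named after its value was seen, was P4ha2 at 0.32. Plod2 and Loxl2 lost the threshold in 10 and 11 of 15 alternatives.

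The largest rise among the targets was that of a vascular gene. Of 14 tested genes, 3 passed as higher and 1 as lower, with a median of 0.26. Cxcr4, the receptor of CXCL12, was read at 1.29, 1.73, 1.54 and 0.969 FPKM among WT libraries, against 7.78, 4.71, 5.18 and 3.15 FPKM for LRP1 KO, a rise of 1.34 (SE 0.21, limma adjusted p 0.00583). Apln, a peptide made by growing vessels, rose by 0.78 (SE 0.18, limma adjusted p 0.0278). In both genes the LRP1 KO libraries all exceeded the WT ones, and LRP1 KO library 4 was the lowest of its group. Stc1, a secreted glycoprotein, had WT values of 3.68 to 6.69 FPKM, against 1.83 to 3.45 FPKM for LRP1 KO, a fall of 0.77 (SE 0.18, limma adjusted p 0.0249). The calls of Cxcr4, Apln and Stc1 were lost in 1, 8 and 9 of 15 alternatives, that of Cxcr4 with the macrophage covariate. With the endothelial covariate the changes of these 3 genes were 0.80, 0.35 and -0.42. Vegfa, the best known vascular target, was named after its value was seen. Its change was 0.42 (SE 0.16, 95% interval 0.05 to 0.78) and did not pass (limma adjusted p 0.108).

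**Figure D4:**
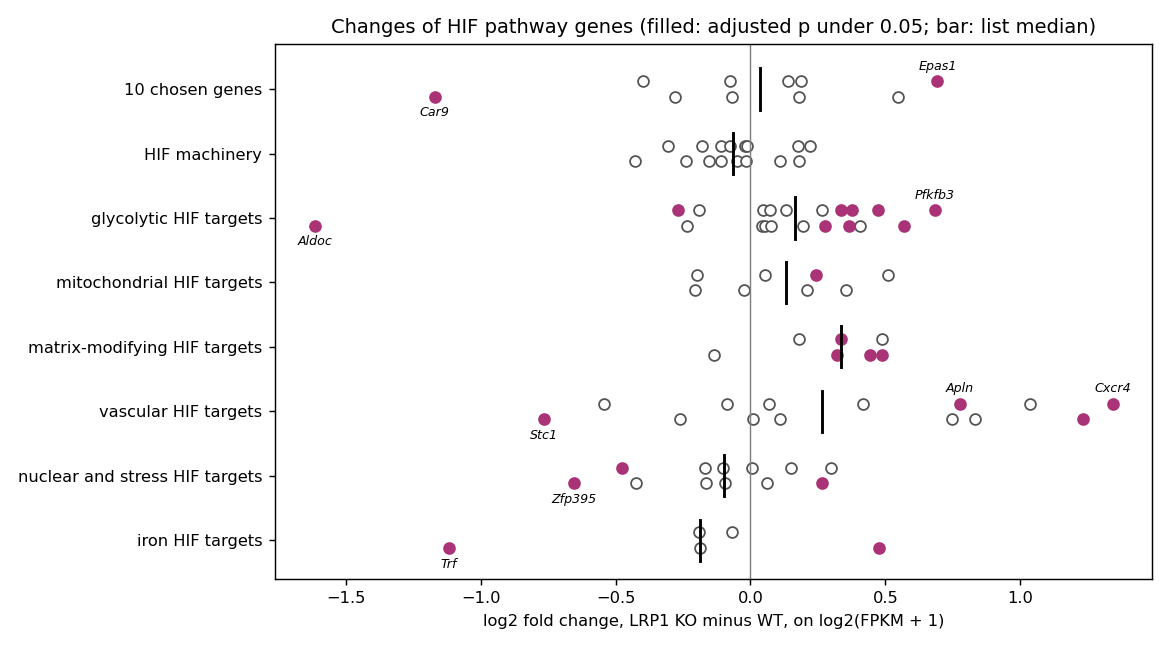
Fitted log2 fold change of each tested gene (LRP1 KO minus WT, on log2(FPKM + 1)) in the 10 chosen genes and 7 other HIF lists, with 1 point a gene, filled where the adjusted p was under 0.05, and a vertical bar at the list median. Called genes lay on both sides of 0, with Aldoc, Car9, Trf and Stc1 farthest to the left and Cxcr4 farthest to the right.

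The smaller lists were mixed. Of 8 mitochondrial targets 1 rose, Higd1a, a protein of the inner membrane, from 20.7 ± 0.488 to 24.7 ± 2.16 FPKM (SD, n = 4 each; limma adjusted p 0.0425). This call was kept in 3 of 15 alternatives, and the change of 0.24 was 0.07 with the macrophage covariate. Bnip3l, the close relative of Bnip3, had a change of -0.02 (limma adjusted p 0.849) and was named after its value was seen. Of 12 nuclear and stress genes 1 rose and 2 fell. Jmjd6, an oxygenase of the nucleus, rose by 0.27 (limma adjusted p 0.0366). Zfp395, a transcription factor, fell by 0.66 (limma adjusted p 0.0278), and Ddit4, an inhibitor of mTORC1 that hypoxia induces, fell by 0.47 (limma adjusted p 0.0263). All 3 calls were lost in 9 of 15 alternatives, and with the endothelial covariate Zfp395 was at -0.27 and Ddit4 at -0.24 (limma adjusted p 0.505 and 0.507, the highest of their alternatives, with lowest values of 0.00180 and 0.00652).

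Of 5 iron genes 1 rose and 1 fell. Tfrc, the transferrin receptor gene, was read at 5.68, 4.78, 5.78 and 4.91 FPKM among WT libraries, against 8.17, 7.32, 7.61 and 7.83 FPKM for LRP1 KO, a rise of 0.48 (SE 0.08, limma adjusted p 0.00720). Trf, which encodes its ligand transferrin, was read at 964, 936, 816 and 836 FPKM among WT libraries, against 326, 452, 313 and 597 FPKM for LRP1 KO, a fall of 1.12 (SE 0.19, limma adjusted p 0.00847). Both calls were lost in 2 of 15 alternatives, those with the endothelial and macrophage covariates, where Trf was at -0.64 and -1.98 and Tfrc at 0.45 and 0.55. Groups did not overlap in either gene, but 79.8% of the stretches of Trf recur in other annotated genes, mainly the overlapping Gm20425.

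Relatives of the chosen genes also moved in both directions, with 2 of 13 tested paralogs higher and 2 lower. Of the Ndrg family, Ndrg2 fell like Ndrg1 but past the threshold, from 56.9 ± 5.11 to 36.9 ± 7.57 FPKM (SD, n = 4 each), by 0.63 (SE 0.13, limma adjusted p 0.0180). Pdk2, the kinase of the same enzyme complex as Pdk1, fell by 0.48 (SE 0.11, limma adjusted p 0.0218). Among carbonic anhydrases, Car8 and Car13 rose where Car9 fell. Car8, which lacks the enzyme activity of the family, had WT values of 0.611 to 1.03 FPKM, against 5.41, 3.63, 4.10 and 0.981 FPKM for LRP1 KO (change 1.26, SE 0.31, limma adjusted p 0.0307). Car8 passed the filter mainly through LRP1 KO libraries 1 to 3, since of WT only library 1 reached 1 FPKM. LRP1 KO library 4 was below WT library 1 and above the other 3 WT libraries. Car13 rose by 0.37 (SE 0.10, limma adjusted p 0.0476), also with library 4 within the WT range. The calls of Ndrg2, Pdk2, Car8 and Car13 were lost in 5, 6, 10 and 10 of 15 alternatives. With the endothelial covariate their changes were -0.35, -0.32, 0.38 and 0.18. Whether the paralogs differed from the chosen genes was not tested.

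Genes with a pattern like the factors were found by the root mean square difference of log2(FPKM + 1), each gene centred on its own mean over the 8 libraries. Nearest to Epas1 were Ctgf, Sept11 and 9430020K01Rik (Jcad in GENCODE), at 0.0911, 0.104 and 0.110 log2 units, where the median over tested genes was 0.456. Sept11 is listed under its Ensembl identifier ENSMUSG00000058013, because the symbol in the table has the form of a date. Nearest to Hif1a were Mysm1, Elf1 and Sp3, at 0.0888, 0.0909 and 0.0931 log2 units, where the median was 0.259.

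**Figure D5:**
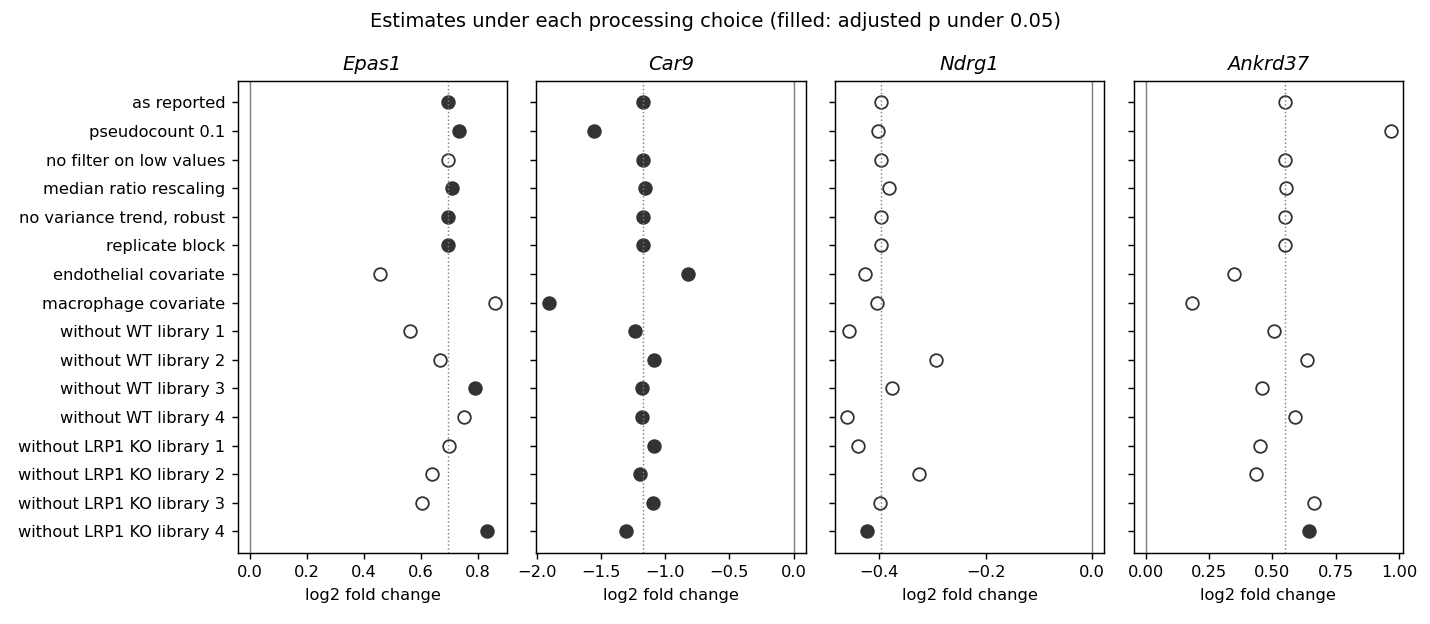
Log2 fold change (LRP1 KO minus WT) of Epas1, Car9, Ndrg1 and Ankrd37 as reported (dotted line) and under 15 other settings, filled where the adjusted p was under 0.05. Car9 was filled in every row, Epas1 in the reported fit and 6 of 15 others, and Ndrg1 and Ankrd37 in 1 of 15.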

How the data were processed

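RNA of 8 libraries (4 WT, 4 LRP1 KO, groups and numbers from the sample titles) had been sequenced by the submitters. Their processing notes name TopHat2, Cufflinks and mm10, with no versions, whereas the study's methods describe trimGalore, STAR and featureCounts, which give counts. The deposited table holds FPKM, taken as such from the Cufflinks note because its header names no unit. The columns were taken to be quantile normalized by the authors, because sorted values of at least 1 differed between libraries by a median of 0.576%. Depth and reads were not recoverable from the deposited table, so no counting error was computed. Limma 3.58.1 in R 4.3.3 was fitted to log2(FPKM + 1) of 11389 genes with group as the only term and variances following the mean level, after tests on simulated data. Each replicate was also left out in turn. The alternatives were a pseudocount of 0.1, no filter, rescaling by median ratios, robust variances with no trend, a replicate block and covariates for the mean log2 level of endothelial or macrophage markers. Positions came from GENCODE M21 (GRCm38, the assembly behind mm10), in which 21740 of 22520 Ensembl identifiers were found, and sequences from RefSeq. Shared stretches are 50-base runs of the longest protein-coding transcript found in any other gene. The 10 genes, lists and markers were chosen with earlier results of these data known. Genes named were these 10, Lrp1, up to 3 called genes in each direction of a list, Calcrl, Ramp2, Ramp3, Arnt, Vhl and the 3 genes nearest to each factor. Of the genes this rule gives, 1 is not reported here. A gene named outside this rule is marked as such, marker genes apart.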

Additional observations from a re-analysis of the deposited data

Results flagged for a closer look

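In each group of 4 libraries, the highest or lowest value was compared with the others for the 10 hypoxia genes, Lrp1 and the other genes named by the rule. Of 90 such groups, 3 held a library that lay far from the other 3 (Dixon's ratio above its 95% critical value), where chance alone gives about 1 in 20, and none was in the 10 hypoxia genes or Lrp1. Loxl2 in LRP1 KO library 4 was at 132.9 FPKM, below 150.3 to 152.8 FPKM in the other 3. Car8 in WT library 1 was at 1.03 FPKM, above 0.611 to 0.673 FPKM in the other 3. Ndrg2 in WT library 4 was at 49.3 FPKM, below 58.7 to 60.5 FPKM in the other 3.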

How the results depend on the processing

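Car9 and Lrp1 kept their direction and passed in all 15 alternatives, Lrp1 at -5.66 to -3.87. The count over all genes was 1547, and 512 to 3021 with 1 library left out, with the extremes without WT library 2 and without LRP1 KO library 4. It was 1013 with the replicate block, 164 with the endothelial covariate and 30 with the macrophage covariate, which nearly follows group. Of the 10 hypoxia genes 2 passed, and 1 to 5 with 1 library left out, 1 with no filter and 1 with the endothelial covariate. Of the 82 other pathway genes 23 passed, and 8 to 37 with 1 library left out, 11 with no filter, 2 with the endothelial covariate and 0 with the macrophage covariate. Estimates that changed sign were 0.0728 for Adm, 0.21 for Bnip3 and -0.49 for Ramp2 with the endothelial covariate, and -0.14 for Egln1, -0.0874 for Hif1a, -0.68 for Pdk1, -0.23 for Mysm1 and -0.25 for Sp3 with the macrophage covariate. With 1 library left out, Adm ran from -0.18 to 0.00609, Bnip3 from -0.18 to 0.0611 and Sp3 from -0.0723 to 0.16. The cause was not tested. Same-numbered libraries did not all deviate together (correlations 0.158, 0.141, 0.340 and -0.312). Libraries of different numbers ran from -0.404 to 0.377, and the numbers were not taken as pairs. The replicate block left 2 of the 10 genes and 18 of the 82 past the threshold. Of 34 other named genes 25 passed, and each of the 25 lost the threshold in at least 1 alternative. Without depth, the precision of the low genes Ankrd37 and Car9 rests on the spread between libraries alone.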
